A study of Mus musculus with 10 samples.

Results

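The EGF family of growth factors and its ERBB receptors were examined here as 10 genes, out of 23364 rows in each of 2 deposited tables. They are the ligands Areg (amphiregulin), Ereg (epiregulin), Hbegf (heparin-binding EGF-like growth factor), Btc (betacellulin), Epgn (epigen), Tgfa (transforming growth factor alpha) and Egf (epidermal growth factor), and the receptors Egfr, Erbb2 and Erbb3. They were chosen by gene symbol as known family members, with earlier results of these data known, and all 10 were found in both tables. Poly(A) RNA was sequenced in 10 libraries of crypts, which EDTA and shaking had detached from the distal colon of mice. In AOM+DSS (3 libraries) mice received azoxymethane (AOM), a carcinogen that alkylates DNA, and then dextran sulfate sodium (DSS), which injures the colon lining, and the submitters call it a cancer condition that inflammation helps to bring on. In DSS (4 libraries) they received DSS without AOM, and control mice (3 libraries) had no treatment. The labels give no strain, age, sex, dose or time, and nothing in them states 1 animal per library, so the p-values reflect no more than the spread of these samples, which may be technical.

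EGF family ligands are made as membrane-anchored precursors and are released at the cell surface by metalloproteases such as Adam10 and Adam17. Areg, Epgn, Tgfa and Egf bind the receptor Egfr, while Ereg, Hbegf and Btc also bind Erbb4. Erbb2 has no known ligand of its own and acts as a partner of the other receptors, and Erbb3 binds neuregulins and signals through its partners because its own kinase is weak. In the colon this pathway drives growth of epithelial cells and repair after injury, largely through the kinase ERK, which also switches on its own inhibitors.

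The deposited tables hold group means of normalized reads, and whole reads of each library were recovered for all 10 genes, from the printed means for 7 of them and from the means together with the printed p for Areg, Erbb2 and Erbb3. Libraries carry letters within a group, a for the deepest, and cannot be matched to the labels' replicate numbers. Recovered depth was 16165300 to 23593132 reads in AOM+DSS, 7819643 to 14740357 in DSS and 14787052 to 16451811 in control libraries. Genes with recovered reads account for 95.3% of the mean total in AOM+DSS, 60.6% in DSS and 84.2% in control. All 8 epithelial markers examined were abundant, for example Epcam with mean normalized reads of 28957 in AOM+DSS, 28156 in DSS and 24719 in control in the authors' deposited table, and none of them passed in either comparison. Several libraries stood apart. The 10 myeloid markers summed to 5708 to 11388 normalized reads in AOM+DSS, 3166 to 8676 in DSS and 1502 to 3211 in control libraries, with control b the highest control. Among them, Ptprc is a gene of all leukocytes, lymphocytes included, and had 4607 normalized reads in DSS a, the library with the sum of 8676. Smooth muscle markers summed to 11938 in AOM+DSS c, against 260.3 and 200.2 in AOM+DSS a and b, and to 1316 in control b, against 162.2 and 82.6 in control a and c. In DSS, Pearson's r was 0.964 for the pair a and b, 0.988 for the pair c and d, and 0.913 to 0.942 across these pairs (over log2 values of 11197 genes, which are not independent replicates).

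Epgn, Ereg, Areg and Btc lie next to each other on mouse chromosome 5, with 0 protein-coding genes between neighbours. The promoters of Areg, Tgfa and Egfr, which were higher in AOM+DSS than in control crypts, are shown because a promoter is where the signals that set a gene's transcription are read. Each run is the 250 bases before the start of transcription, from RefSeq on build GRCm38.p6, at chr5:91139349-91139598, chr6:86194972-86195221 and chr11:16751953-16752202, all on the plus strand and printed 5′ to 3′. The capitals mark matches, on either strand, to a cyclic AMP response element (TGACGTCA), a GC box (GGGCGG) and a TATA box (TATAAA). The motif of AP-1 (TGANTCA), the Fos and Jun dimer, was also searched, and none of the matches overlap each other.
Areg: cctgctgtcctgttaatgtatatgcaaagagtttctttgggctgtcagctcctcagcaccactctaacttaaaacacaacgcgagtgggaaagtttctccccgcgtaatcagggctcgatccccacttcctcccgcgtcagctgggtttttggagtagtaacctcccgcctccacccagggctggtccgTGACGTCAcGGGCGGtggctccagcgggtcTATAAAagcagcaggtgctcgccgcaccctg
Tgfa: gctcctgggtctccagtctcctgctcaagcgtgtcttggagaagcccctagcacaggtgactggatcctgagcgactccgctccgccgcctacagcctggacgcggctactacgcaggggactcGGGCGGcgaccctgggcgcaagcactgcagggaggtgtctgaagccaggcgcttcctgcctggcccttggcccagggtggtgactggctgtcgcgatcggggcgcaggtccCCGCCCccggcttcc
Egfr: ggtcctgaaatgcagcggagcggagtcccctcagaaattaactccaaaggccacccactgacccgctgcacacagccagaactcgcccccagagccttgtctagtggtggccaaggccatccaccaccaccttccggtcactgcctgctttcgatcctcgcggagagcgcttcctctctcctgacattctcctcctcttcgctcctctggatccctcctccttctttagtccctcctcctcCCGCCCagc

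The Areg promoter held the cyclic AMP response element with its first base 61 bases before the start, a GC box at 52 and a TATA box at 31. Of 32851 mouse promoter windows of the same length, 1.55% held that response element, 32.7% a GC box and 12.4% a TATA box. The windows of Tgfa and Egfr held GC boxes, 2 in Tgfa and 1 in Egfr, and no match to the other motifs. The AP-1 letters, found in 6.75% of all windows, were not in the windows of Epgn, Areg, Btc, Tgfa, Egf, Egfr or Erbb2, the members with a window in the RefSeq table. Of these, Epgn held a TATA box, and Btc, Egf and Erbb2 held no match. A match describes these letters and was not tested as a site of binding.

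The ligands Areg and Hbegf and the receptor Egfr were higher than control in both treated groups, Ereg and Tgfa passed in AOM+DSS, and Btc, Epgn, Egf, Erbb2 and Erbb3 passed in neither comparison of the authors. In the authors' deposited table, 5 of the 10 genes were higher in AOM+DSS than in control at an adjusted p under 0.05 (DESeq with Benjamini-Hochberg adjustment), namely Areg, Ereg, Hbegf, Tgfa and Egfr, and 0 were lower. Of all 18334 genes tested there, 5.54% passed as higher and 3.35% as lower, 8.89% together. In the comparison of DSS with control, 3 of the 10 were higher in the authors' deposited table, namely Areg, Hbegf and Egfr, and 0 were lower, where 2.61% of 18099 genes passed as higher and 1.78% as lower, 4.39% together. At an unadjusted p under 0.05 in the authors' deposited table, 7 of the 10 passed in AOM+DSS and 6 in DSS, where 18.9% and 13.2% of all genes tested did. Over the 10 genes, log2 fold changes in the authors' deposited table had a median of 1.24 in AOM+DSS and 0.668 in DSS. For all genes with a mean of at least 10 it was 0.0102 and 0.0307, but the 10 include Epgn, whose mean was under 10. In limma, the 9 members with a mean of at least 10 had medians of 1.20 and 0.545, beside 0.0155 and 0.0129 for all genes tested. Both comparisons use the same 3 control libraries, so they are not independent of each other. The members were chosen with earlier results of these data known, so setting them beside all genes is no test of the set. In bulk RNA, fewer cells of a type and less RNA per cell cannot be told apart.

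**Figure D1:**
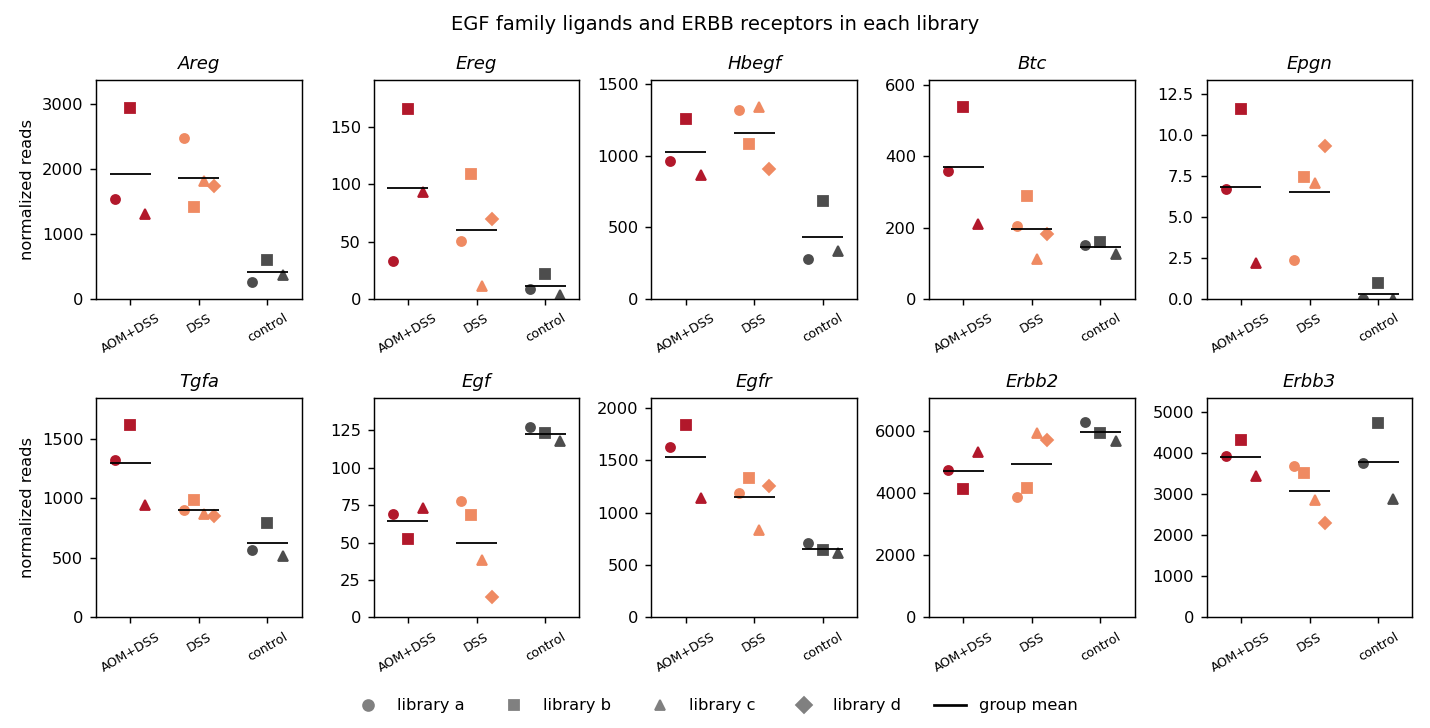
Normalized reads (y axis, from 0) of the 10 genes in every library of the AOM+DSS (3 libraries), DSS (4) and control (3) groups. Symbols mark the library letter and lines the group means. In Areg, Hbegf, Tgfa and Egfr every treated library lies above every control library, and in Egf every treated library lies below.

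The plot of members by library shows which of the 10 genes separate the groups. Every AOM+DSS library lay above every control library for 7 genes (Areg, Ereg, Hbegf, Btc, Epgn, Tgfa and Egfr) and below for 2 (Egf and Erbb2). Of 13733 genes with a mean of at least 10, 23.6% lay wholly above and 21.3% wholly below in that comparison. Every DSS library lay above every control library for 5 (Areg, Hbegf, Epgn, Tgfa and Egfr) and below for 1 (Egf), against backgrounds of 12.6% and 12% of 12807 genes. Between AOM+DSS and DSS, the libraries of all 10 genes overlapped, where 7.98% of 13099 genes lay wholly above and 4.36% wholly below. Epgn, with a mean under 10, counts among the members but not among the genes of these shares.

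Areg had the highest transcript level per length of the 7 ligands in both treated groups. It stood at 1536, 2933 and 1309 normalized reads in AOM+DSS libraries a to c, at 2480, 1415, 1821 and 1739 in DSS libraries a to d, and at 266.5, 606.4 and 370.7 in control libraries a to c. The lowest treated library, AOM+DSS c, was still above control b, the highest control. Group means were 1926 ± 879 in AOM+DSS (SD, n = 3), 1864 ± 447 in DSS (n = 4) and 415 ± 174 in control (n = 3). In the authors' deposited table Areg rose by a log2 fold change of 2.22 in AOM+DSS (adjusted p = 0.000169) and of 2.17 in DSS (adjusted p = 0.000241). By limma on log2(normalized reads + 1), the differences were 2.20 ± 0.37 (SE, adjusted p = 0.0111) and 2.22 ± 0.28 (adjusted p = 0.00439). With control a left out, the limma difference between AOM+DSS and control was 1.93 with an adjusted p of 0.0503.

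Hbegf, a ligand that also binds heparan sulfate on the cell surface, differed less than Areg. Its normalized reads were 960, 1256 and 866.1 in AOM+DSS libraries a to c, 1318, 1080, 1337 and 902.7 in DSS libraries a to d, and 278.1, 679.5 and 335.8 in control libraries a to c. Treated and control libraries did not overlap, and control b was again the highest control. The authors' deposited table gave Hbegf a log2 fold change of 1.25 in AOM+DSS (adjusted p = 0.000282) and 1.43 in DSS (adjusted p = 1.36e-05). Limma gave 1.34 ± 0.33 for AOM+DSS (SE, adjusted p = 0.0284) and 1.52 ± 0.30 for DSS (adjusted p = 0.0190).

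Tgfa, a ligand of Egfr alone, passed in AOM+DSS but not in DSS. It stood at 1324, 1617 and 944.6 normalized reads in AOM+DSS libraries a to c, at 900.3, 981.3, 866.6 and 851.5 in DSS libraries a to d, and at 566.7, 794 and 517.9 in control libraries a to c. The DSS libraries lay close together and all above the controls, and AOM+DSS c lay among them, below DSS b. In the authors' deposited table the log2 fold change was 1.05 in AOM+DSS (adjusted p = 0.000951) and 0.52 in DSS (adjusted p = 0.277). The direct comparison of AOM+DSS with DSS gave a difference of 0.49 ± 0.18 (SE), which did not pass in limma (adjusted p = 0.290, unadjusted p = 0.0240). Without AOM+DSS c, that difference was 0.70 with an adjusted p of 0.0427 in limma. In that fit limma called 443 genes in all, against 235 with all libraries. AOM+DSS c had the lowest Tgfa of its group, so leaving it out must widen the difference. It was the 1 fit of 7 with a library left out in which Tgfa passed. Without AOM+DSS b the difference was 0.32 (limma adjusted p = 0.959).

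Ereg was far less abundant than Areg and varied more between libraries. It had 32.7, 165.4 and 92.8 normalized reads in AOM+DSS libraries a to c (44, 200 and 84 reads), 50.6, 108.8, 11.3 and 69.8 in DSS libraries a to d (64, 132, 8 and 45 reads), and 8.69, 21.7 and 3.18 in control libraries a to c (9, 22 and 3 reads). All AOM+DSS libraries lay above the controls, while DSS c lay below control b. From the authors' deposited table, the log2 fold change of Ereg was 3.11 in AOM+DSS (adjusted p = 0.0428) and 2.42 in DSS (adjusted p = 0.174). Limma gave 3.05 ± 0.78 for AOM+DSS (SE, adjusted p = 0.0332) and 2.28 ± 0.82 for DSS (adjusted p = 0.128). Without DSS c, the limma difference between DSS and control was 2.92 with an adjusted p of 0.0409.

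Btc, which binds Egfr and Erbb4, had 359.9, 537.6 and 209.9 normalized reads in AOM+DSS libraries a to c, 204.7, 290, 111.9 and 183 in DSS libraries a to d, and 150.6, 161 and 126 in control libraries a to c. The AOM+DSS libraries all lay above the controls, and the DSS libraries overlapped them. Btc did not pass in the authors' deposited table, with a log2 fold change of 1.34 in AOM+DSS (adjusted p = 0.0786) and 0.44 in DSS (adjusted p = 0.833). In limma it passed in AOM+DSS (1.24 ± 0.33, SE, adjusted p = 0.0364). It was not called in 4 of the 6 fits with 1 library left out, in which limma also called fewer genes in all.

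Epgn was near the limit of detection. It was counted in 9, 14 and 2 reads in AOM+DSS libraries a to c, in 3, 9, 5 and 6 reads in DSS libraries a to d, and in 0, 1 and 0 reads in control libraries a to c. Every treated library held more reads than any control. The summed reads at equal depth were 21.6 times as high in AOM+DSS as in control, with a 95% exact interval of 3.54 to 888.0, and 17.97 times as high in DSS as in control, with an interval of 2.92 to 740.3, and both cover counting error only. Epgn did not pass in the authors' deposited table, with adjusted p-values of 0.307 in AOM+DSS and 0.474 in DSS. Its mean was under the minimum of 10 used for limma, and with no minimum limma called it higher in AOM+DSS (adjusted p = 0.0328) and in DSS (adjusted p = 0.0255). With no minimum limma called 17.3% of 18205 genes in AOM+DSS and 5.88% of 17394 in DSS. The controls, at 0 or 1 read, lie at the floor of the log2 values, so their spread says little.

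Egf was the ligand with lower values after treatment. It had 69.2, 52.1 and 72.9 normalized reads in AOM+DSS libraries a to c, 77.5, 68.4, 38.2 and 14.0 in DSS libraries a to d, and 127.4, 123.4 and 117.6 in control libraries a to c. The 3 controls were within a narrow band, 122.8 ± 4.97 (SD), and all 7 treated libraries lay below it. Neither comparison passed for Egf in the authors' deposited table, where its log2 fold change was -0.92 in AOM+DSS (adjusted p = 0.218) and -1.31 in DSS (adjusted p = 0.121). In limma the difference was -0.93 ± 0.23 in AOM+DSS (SE, adjusted p = 0.0291), which passed, and -1.55 ± 0.54 in DSS (adjusted p = 0.115), which did not. With DSS a and b left out, the difference of Egf in DSS was -2.35 with an adjusted p of 0.0139 in limma. With DSS c and d left out it was -0.75 (limma adjusted p = 0.0514), and without DSS d alone -1.05 (limma adjusted p = 0.102). The pairs a and b, and c and d, were seen in these same data. Limma called 2109 genes in all without DSS a and b and 2854 without c and d, against 1037 with all libraries.

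The receptors differed among themselves. Egfr, the receptor that binds all 7 ligands, had 1629, 1843 and 1139 normalized reads in AOM+DSS libraries a to c, 1187, 1330, 839.7 and 1258 in DSS libraries a to d, and 708.7, 645.9 and 616.5 in control libraries a to c. No treated library reached down to the controls, whose spread was narrow (657 ± 47.1, SD, n = 3), and control b was not the highest of them. As the authors' deposited table has it, Egfr rose by a log2 fold change of 1.23 in AOM+DSS (adjusted p = 7.07e-05) and of 0.81 in DSS (adjusted p = 0.0209). Limma gave 1.20 ± 0.18 for AOM+DSS (SE, adjusted p = 0.00784) and 0.79 ± 0.17 for DSS (adjusted p = 0.0257). Between the treatments, the difference of AOM+DSS from DSS was 0.41 ± 0.21 and did not pass in limma (adjusted p = 0.478).

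Erbb2, the partner receptor, had 4731, 4134 and 5312 normalized reads in AOM+DSS libraries a to c, 3878, 4182, 5929 and 5705 in DSS libraries a to d, and 6294, 5950 and 5664 in control libraries a to c. The DSS libraries fell into pairs, with a and b below every control and c and d among the controls. The authors' deposited table gave Erbb2 a log2 fold change of -0.34 in AOM+DSS (adjusted p = 0.385) and -0.28 in DSS (adjusted p = 0.438). Relative to the mean of all libraries, levels followed the GC content of the transcript across 10547 genes with Spearman's rho of -0.285 and -0.296 in DSS a and b and 0.320 and 0.336 in DSS c and d. The same rho was -0.213, -0.161 and -0.152 in AOM+DSS a to c, and 0.158, -0.0375 and 0.13 in control a to c. Erbb2 had the highest GC content of the 10 genes, at 57.3%. Btc (37.7%), Ereg (39.2%), Epgn (40.8%) and Egfr (44.4%) had the lowest. The part of GC content in the split of Erbb2, or in the differences of any member between groups, was not tested. With DSS c and d left out, Erbb2 was lower in DSS than in control in limma (-0.57, adjusted p = 0.0164). With DSS a and b left out the difference was -0.04 (limma adjusted p = 0.805). The pairs were seen in these same data, so these fits are no independent test. Over all genes limma called 2854 without DSS c and d and 2109 without DSS a and b, against 1037 with all libraries.

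Erbb3, the receptor of neuregulins, had 3917, 4312 and 3436 normalized reads in AOM+DSS libraries a to c, 3667, 3498, 2844 and 2288 in DSS libraries a to d, and 3757, 4720 and 2867 in control libraries a to c. Both treated groups overlapped the controls. Its log2 fold change in the authors' deposited table was 0.04 in AOM+DSS (adjusted p = 1) and -0.30 in DSS (adjusted p = 0.813). Between the treatments, Erbb3 differed by 0.36 ± 0.18 in limma (SE, adjusted p = 0.459), and by 0.60 with an adjusted p of 0.0424 when DSS a and b were left out. When DSS c and d were left out it was 0.11 (limma adjusted p = 0.732). DSS c and d had the lowest Erbb3 of the DSS libraries, so leaving out a and b must widen the difference. The pairs were seen in these same data, so these fits are no independent test. Over all genes, limma called 2013 without DSS a and b and 44 without c and d, against 235 with all libraries.

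**Figure D2:**
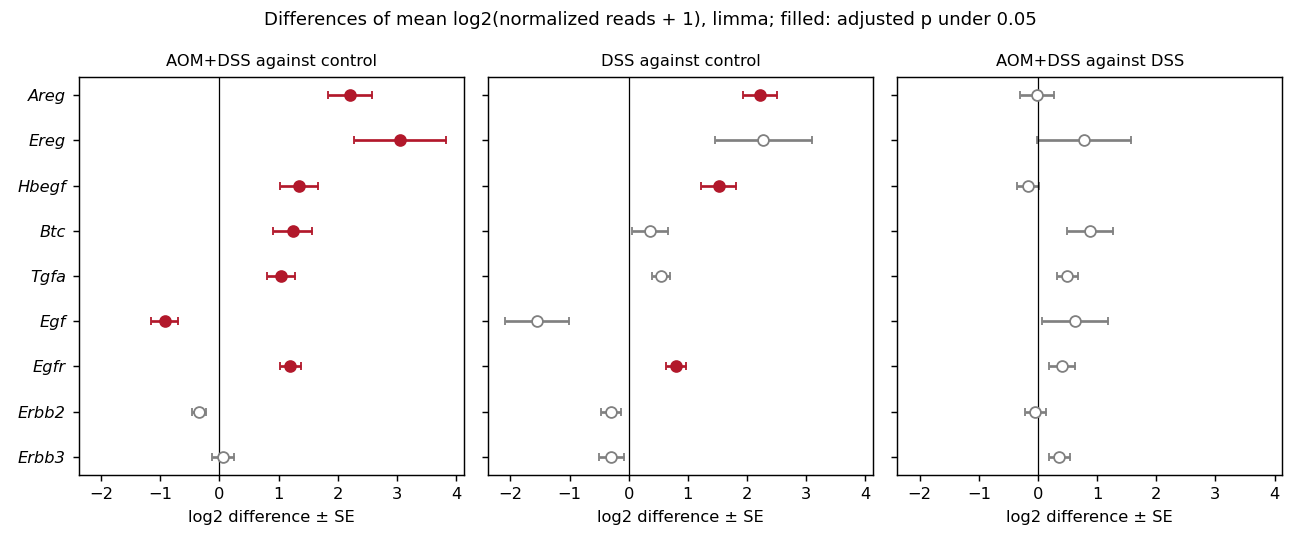
Differences of mean log2(normalized reads + 1) with standard errors from limma (x axis) for the 9 genes with a mean of at least 10, in the comparisons of AOM+DSS with control, DSS with control and AOM+DSS with DSS. Filled points passed an adjusted p of 0.05: 7 in AOM+DSS, 3 in DSS and 0 between the treatments.

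The plot of limma differences sets all members on one scale. In limma, 6 of the 9 genes tested were higher and 1 was lower in AOM+DSS than in control, where 13.6% of 13733 genes were higher and 9.17% lower, 22.7% together. In DSS, 3 of 9 were higher than in control and 0 lower, where 4.54% of 12807 genes were higher and 3.56% lower, 8.1% together. Between AOM+DSS and DSS, 0 of 9 passed in limma, where 1.79% of 13099 genes did (1.73% higher and 0.0687% lower), and 1 of 9, Tgfa, had an unadjusted p under 0.05, where 12.7% of those genes did. Only limma was run on that comparison. The standard errors in that comparison were 0.18 to 0.79, widest for Ereg, whose difference was 0.78 ± 0.79.

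Several of these limma calls were lost or made when 1 library was left out, which also leaves fewer libraries to test with. The calls over all genes moved too: in AOM+DSS against control limma called 3124 genes with all libraries, 536 without control a, 878 without control c, 835 without AOM+DSS a and 1445 without AOM+DSS b. In DSS against control it called 1037 genes with all libraries, 192 without control a and 251 without control c. Hbegf, Tgfa, Btc and Egf were not called in AOM+DSS without control a, control c, AOM+DSS a or AOM+DSS b. In those fits Hbegf differed by 1.08 to 1.38 (limma adjusted p = 0.0777 to 0.103), Tgfa by 0.86 to 1.00 (0.0577 to 0.0967), Btc by 0.92 to 1.27 (0.0786 to 0.122) and Egf by -0.98 to -0.78 (0.0758 to 0.126). Ereg was not called in AOM+DSS without control a, control c, AOM+DSS b or AOM+DSS c, with differences of 2.44 to 3.05 (limma adjusted p = 0.0556 to 0.113). In DSS, Hbegf was not called without control a or c (1.26 to 1.39, limma adjusted p = 0.0948 to 0.0950), and Egfr was not called without any 1 control, DSS b or DSS d (0.72 to 0.85, limma adjusted p = 0.0531 to 0.120). Tgfa was called in DSS without control b (0.73, limma adjusted p = 0.0161). Erbb2 was called lower in AOM+DSS without AOM+DSS c (-0.43, limma adjusted p = 0.0255). Over all genes these fits called 1272 and 4377, more than the 1037 and 3124 with all libraries.

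Levels can be compared between genes only per length, here as normalized reads per kilobase of the longest annotated transcript. In AOM+DSS libraries the order was Areg (1585 ± 724 normalized reads per kilobase, SD, n = 3), Hbegf (433 ± 85.6), Tgfa (286 ± 74.5), Btc (128 ± 57.0), Ereg (23.5 ± 16.1), Egf (13.6 ± 2.33) and Epgn (3.88 ± 2.66). Only the neighbours Ereg and Egf overlapped there. The order was the same in DSS, where Areg stood at 1534 ± 368 and Hbegf at 488 ± 87.3 normalized reads per kilobase (n = 4), and where Egf overlapped both Ereg and Epgn. In control, Areg (341 ± 143), Hbegf (182 ± 91.4) and Tgfa (138 ± 32.5) overlapped their neighbours in the order, and Egf (25.8 ± 1.04) stood above Ereg (2.71 ± 2.31) with no overlap.

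**Figure D3:**
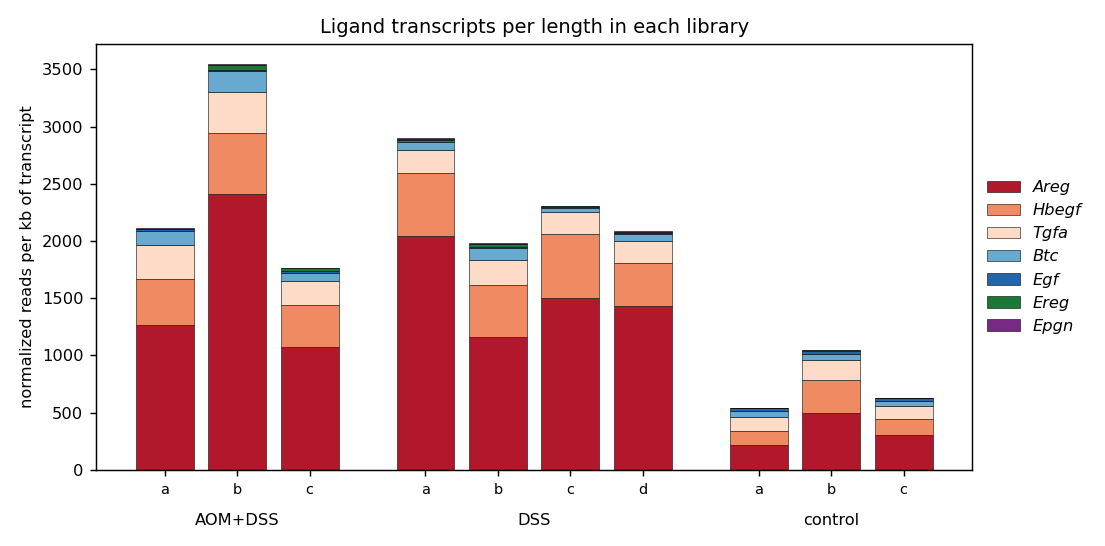
Normalized reads per kilobase of transcript (y axis, from 0) of the 7 ligands, stacked for each library of the AOM+DSS, DSS and control groups. The summed levels are 1763 to 3544 in AOM+DSS, 1982 to 2897 in DSS and 542.8 to 1048 in control libraries, and Areg takes the largest share in every one of the 10 libraries.

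The stacked plot of ligand levels also shows a change in composition. Areg made up 63.0% ± 4.44 of the summed ligand level per kilobase in AOM+DSS (SD, n = 3), 65.7% ± 5.15 in DSS (n = 4) and 45.5% ± 4.41 in control (n = 3), and no treated library, the lowest at 58.8%, reached down to the highest control at 48.4%. The share of Tgfa was 11.9% ± 1.88 in AOM+DSS, 8.78% ± 1.69 in DSS and 19.3% ± 3.32 in control. Egf made up 0.622% ± 0.286 in AOM+DSS, 0.444% ± 0.254 in DSS and 3.77% ± 1.24 in control. Among the receptors, Erbb2 stood above Erbb3 and Erbb3 above Egfr per kilobase in every group with no overlap. Egfr had 151 ± 35.4 normalized reads per kilobase in AOM+DSS, 113 ± 21.3 in DSS and 64.4 ± 4.61 in control, beside 943 ± 117, 982 ± 208 and 1191 ± 63.0 for Erbb2 and 646 ± 72.9, 511 ± 105 and 629 ± 154 for Erbb3 in the same groups.

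Some markers of immune cells also differed between the groups. In the authors' deposited table, 7 of the 10 myeloid markers were higher in AOM+DSS than in control and 4 of 10 in DSS. Of 7 markers of T and natural killer (NK) cells, 2 and 1 were higher there, and of 6 of B and plasma cells 0 in either. Of all genes tested there, 5.54% and 2.61% passed as higher. B and plasma markers summed to 1389 to 5283 normalized reads in AOM+DSS, 2069 to 12641 in DSS and 131 to 3042 in control. T and NK markers summed to 433 to 686, 323 to 2197 and 109 to 468 in the same groups. In both lists DSS a was the highest library and control b the highest control. Cd14 alone made up 21.6% to 84.2% of the myeloid sum of a library. Without it, the other 9 markers summed to 3939, 7970 and 3506 normalized reads in AOM+DSS libraries a to c, 6802, 3762, 1028 and 924.4 in DSS libraries a to d, and 370.7, 1930 and 242.6 in control libraries a to c. At 0 reads were Clec4d in control a and c and Fcgr3 in control c. Areg, Hbegf and Tgfa were higher in DSS c and d than in control b, while the sum of the 9 markers was lower in DSS c and d than in control b. That sum was mostly Lyz2 and Ptprc in control b, at 952 and 673.5 normalized reads, against 169.9 and 576.3 in DSS c and 133.4 and 421.9 in DSS d. Also lower in DSS c and d were Csf1r (35.4 and 43.4 against 124.4 in control b) and Fcgr3 (9.91 and 9.31 against 28.6). So were Emr1 (4.25 and 7.76 against 13.8) and, by little in DSS c, Itgam (52.4 and 43.4 against 53.3). Other markers went the other way: Cd14 had 2138 and 2285 normalized reads in DSS c and d against 1281 in control b, Ncf4 148.7 and 242 against 73.1, Csf3r 26.9 and 20.2 against 9.88, and Clec4d 4.25 and 3.10 against 0.988. For Ereg this held in DSS d, with 69.8 normalized reads against 21.7 in control b, but not in DSS c, with 11.3. The part of myeloid or other immune cells in the levels of the ligands was not tested.

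**Figure D4:**
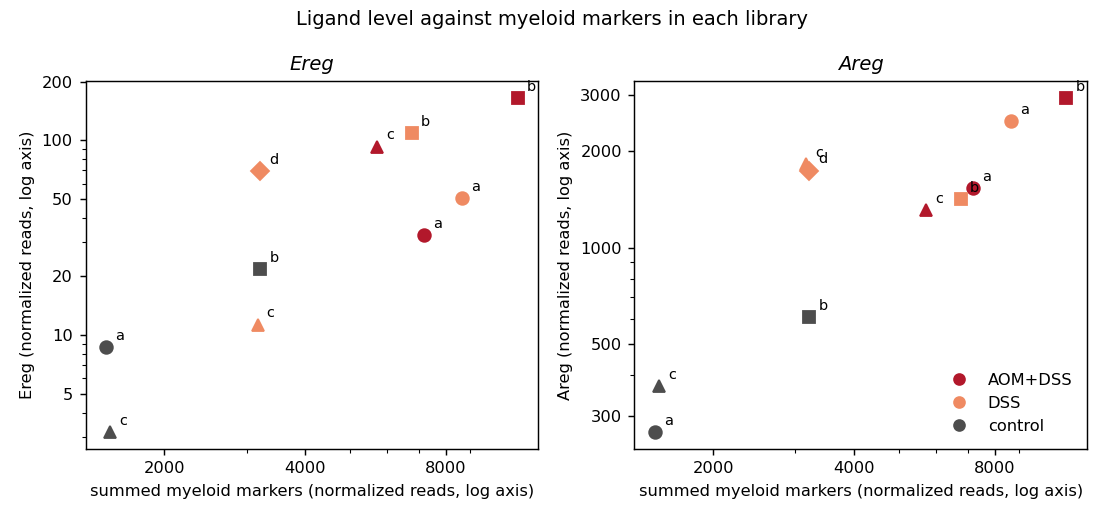
Normalized reads of Ereg (left) and Areg (right) against the summed normalized reads of the 10 myeloid markers in each of the 10 libraries, on log axes. Colours mark AOM+DSS, DSS and control, and letters the libraries. AOM+DSS b is highest in both ligands and in the marker sum, and DSS c and d have marker sums of 3166 and 3209, near the 3211 of control b, with Areg at 1821 and 1739 against 606.4.

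The plot of ligands and myeloid markers places control b apart from control a and c on both axes. The profile of each ligand over the 10 libraries was then compared with those of 11197 genes recovered in all libraries with a mean of at least 50, as the root mean square difference of centred log2 values. The 5 genes most like Areg were Arid5a (0.309), Il4ra (0.325), 1700024P16Rik (0.326), Gbp8 (0.339) and Sh3kbp1 (0.344). Hbegf ranked 29 in likeness to Areg, Egfr 388, Tgfa 461, Btc 1275 and Ereg 4437. The 5 genes most like Ereg were Tyrobp (0.669), Ggt1 (0.703), Sfpi1 (0.720), Rgs1 (0.722) and Fxyd5 (0.736), and Areg ranked 203. These distances are not comparable with those from Areg. Ereg had 34 reads in all controls together, and the counting error of low reads adds to its distance from every gene. With a control mean of 11.2, Ereg met the minimum of 50 only through the treated libraries.

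Neuregulins and Erbb4, the rest of the family, were low in every group. None of these 5 genes passed in either comparison in the authors' deposited table, with 5 tested in AOM+DSS and 4 in DSS and 0 at an unadjusted p under 0.05, and limma did not call Nrg4, the one with a mean of at least 10. Nrg4, a ligand of Erbb4, had 25.1 ± 2.42 normalized reads in AOM+DSS (SD, n = 3), 25.5 ± 3.61 in DSS (n = 4) and 21.3 ± 2.95 in control (n = 3). Nrg1, a ligand of Erbb3 and Erbb4, had 6.68 ± 2.97, 3.02 ± 2.88 and 0.980 ± 0.988 in the same groups, with adjusted p-values of 0.681 in AOM+DSS and 0.970 in DSS in the authors' deposited table. Erbb4 was at 0 reads in all 4 DSS and all 3 control libraries and reached at most 1.65 normalized reads in AOM+DSS.

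Of 7 genes of ligand release, 2 were higher in AOM+DSS than in control and 0 lower in the authors' deposited table. In DSS, 0 of 7 passed. Over all genes there, 5.54% were higher and 3.35% lower in AOM+DSS, and 4.39% passed in DSS. Adam10, the protease that sheds Egf and Btc, stood at 4571 ± 841 normalized reads in AOM+DSS, 3391 ± 493 in DSS and 2449 ± 321 in control. The authors' deposited table gave it a log2 fold change of 0.90 in AOM+DSS (adjusted p = 0.00057) and 0.47 in DSS (adjusted p = 0.152). Adam12, a metalloprotease able to shed Hbegf, had 91.0 ± 55.1 normalized reads in AOM+DSS, 3.14 ± 1.36 in DSS and 3.32 ± 4.85 in control, and in the authors' deposited table its log2 fold change in AOM+DSS was 4.78 (adjusted p = 0.0162). It was also higher in AOM+DSS than in DSS in limma (4.26 ± 0.62, SE, adjusted p = 0.0157), the one gene of this list that passed there. Its means in DSS and control were under 10, so it met limma's minimum only through the AOM+DSS libraries, which ranged from 27.6 to 127. Adam17, the main protease of Areg and Tgfa, had 1265 ± 162, 1181 ± 264 and 901 ± 35.2 normalized reads in AOM+DSS, DSS and control and did not pass in the authors' comparisons, while limma called it in AOM+DSS (0.48 ± 0.12, SE, adjusted p = 0.0285). The median log2 fold change of the 7 genes was 0.497 in AOM+DSS and 0.39 in DSS. The 7 include Timp3, an inhibitor of such proteases. In the authors' deposited table its log2 fold change was 0.41 in AOM+DSS and -0.34 in DSS, and it passed in neither. At an unadjusted p under 0.05 in the authors' deposited table, 5 of 7 passed in AOM+DSS (Adam9, Adam10, Adam12, Adam17 and Rhbdf2) and 3 of 7 in DSS (Adam10, Adam17 and Rhbdf2), to be read against the 18.9% and 13.2% of all genes. Limma called 4 of 7 in AOM+DSS (Adam10, Adam12, Adam17 and Rhbdf2) and in DSS Rhbdf2 alone (0.55 ± 0.12, SE, adjusted p = 0.0288). Its share over all genes was 22.7% in AOM+DSS and 8.1% in DSS.

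Of 16 inhibitors of the receptors and of ERK, 3 were higher and 1 lower in AOM+DSS than in control in the authors' deposited table. In DSS, 3 were higher and 0 lower there. The shares of all genes higher and lower were 5.54% and 3.35% in AOM+DSS and 2.61% and 1.78% in DSS. Dusp6, the phosphatase that inactivates ERK, had 2654 ± 68.1 normalized reads in AOM+DSS, 2919 ± 407 in DSS and 881 ± 322 in control. In the authors' deposited table it rose on the log2 scale by 1.59 in AOM+DSS (adjusted p = 1.59e-10) and by 1.73 in DSS (adjusted p = 3.69e-13). On the same scale of the authors' deposited table, Spry4, an inhibitor of signalling between receptor and ERK, rose by 1.86 in AOM+DSS (adjusted p = 7.55e-06) and by 1.92 in DSS (adjusted p = 1.59e-06). The authors' deposited table also shows Spred1, an inhibitor of Ras and Raf, higher by 1.01 in AOM+DSS (adjusted p = 0.0401) and by 0.90 in DSS (adjusted p = 0.0498), close to the threshold, and in limma it was called in AOM+DSS (1.02 ± 0.19, SE, adjusted p = 0.0136) but not in DSS (0.85 ± 0.30, adjusted p = 0.122). Lrig3, of a family of receptor inhibitors, had log2 fold changes in the authors' deposited table of -0.77 in AOM+DSS (adjusted p = 0.00776), which passed, and -0.20 in DSS (adjusted p = 0.990). The other 12 in AOM+DSS and 13 in DSS did not pass, and the median log2 fold change over the list was 0.319 and 0.401. At an unadjusted p under 0.05 in the authors' deposited table, 6 of 16 passed in AOM+DSS and 6 of 16 in DSS. Among them Lrig1 and Lrig3 were lower in AOM+DSS, and Lrig1 in DSS. The shares of all genes at that threshold were 18.9% and 13.2%. Limma called 4 higher and 2 lower in AOM+DSS, adding Dusp4, a phosphatase of MAP kinases (2.04 ± 0.53, SE, adjusted p = 0.0335), and Lrig1 (-0.47 ± 0.09, adjusted p = 0.0162). In DSS it called Dusp6 and Spry4 alone. Over all genes it called 13.6% higher and 9.17% lower in AOM+DSS, and 8.1% in DSS.

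Among 14 adaptors and MAPK core genes, 0 passed in either comparison in the authors' deposited table. Their median log2 fold changes were 0.0641 in AOM+DSS and 0.109 in DSS. The shares of all genes that passed there were 8.89% and 4.39%. Mapk3, which encodes the kinase ERK1, had a log2 fold change of -0.09 in AOM+DSS and 0.07 in DSS, and Map2k1, which encodes the kinase MEK1, of -0.35 and -0.18, in the authors' deposited table. At an unadjusted p under 0.05 the authors' values passed for 2 of 14 in AOM+DSS (Gab2 and Nras) and 1 of 14 in DSS (Gab2). The shares of all genes at that threshold were 18.9% and 13.2%. Limma called Nras, which encodes a Ras protein, in AOM+DSS (0.60 ± 0.12, SE, adjusted p = 0.0155) and 0 in DSS. It tested 14 and 12 of these genes, and called 22.7% and 8.1% of all genes.

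Of 15 early response genes, many of them targets of ERK, 3 were higher and 1 lower in AOM+DSS than in control. In DSS 0 passed, both in the authors' deposited table. Over all genes there, 5.54% were higher and 3.35% lower in AOM+DSS, and 4.39% passed in DSS. Ier3, an immediate early gene, had 1031 ± 401 normalized reads in AOM+DSS, 403 ± 194 in DSS and 161 ± 41.6 in control. Its log2 fold change in the authors' deposited table was 2.68 in AOM+DSS (adjusted p = 0.000412) and 1.33 in DSS (adjusted p = 0.164). In AOM+DSS, the authors' deposited table gave log2 fold changes of 1.63 for Phlda1 (adjusted p = 0.00283), 1.74 for Etv5, an ETS transcription factor (adjusted p = 0.0329), and -0.75 for Ier2 (adjusted p = 0.00933). Fos and Jun, the subunits of AP-1, had log2 fold changes of -0.02 and 0.32 in AOM+DSS and of 0.44 and 0.45 in DSS and did not pass in either comparison. The median over the list was 0.402 in AOM+DSS and 0.447 in DSS. At an unadjusted p under 0.05 in the authors' deposited table, 7 of 15 passed in AOM+DSS and 3 of 15 in DSS (Egr2, Ier3 and Phlda1). Of the 7, Etv4 and Ier2 were lower. The shares of all genes at that threshold were 18.9% and 13.2%. Limma called 3 higher and 1 lower of 13 tested in AOM+DSS. Of the 10 tested in DSS, it called Phlda1 (0.81 ± 0.19, SE, adjusted p = 0.0375). Over all genes it called 13.6% higher and 9.17% lower in AOM+DSS, and 8.1% in DSS.

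**Figure D5:**
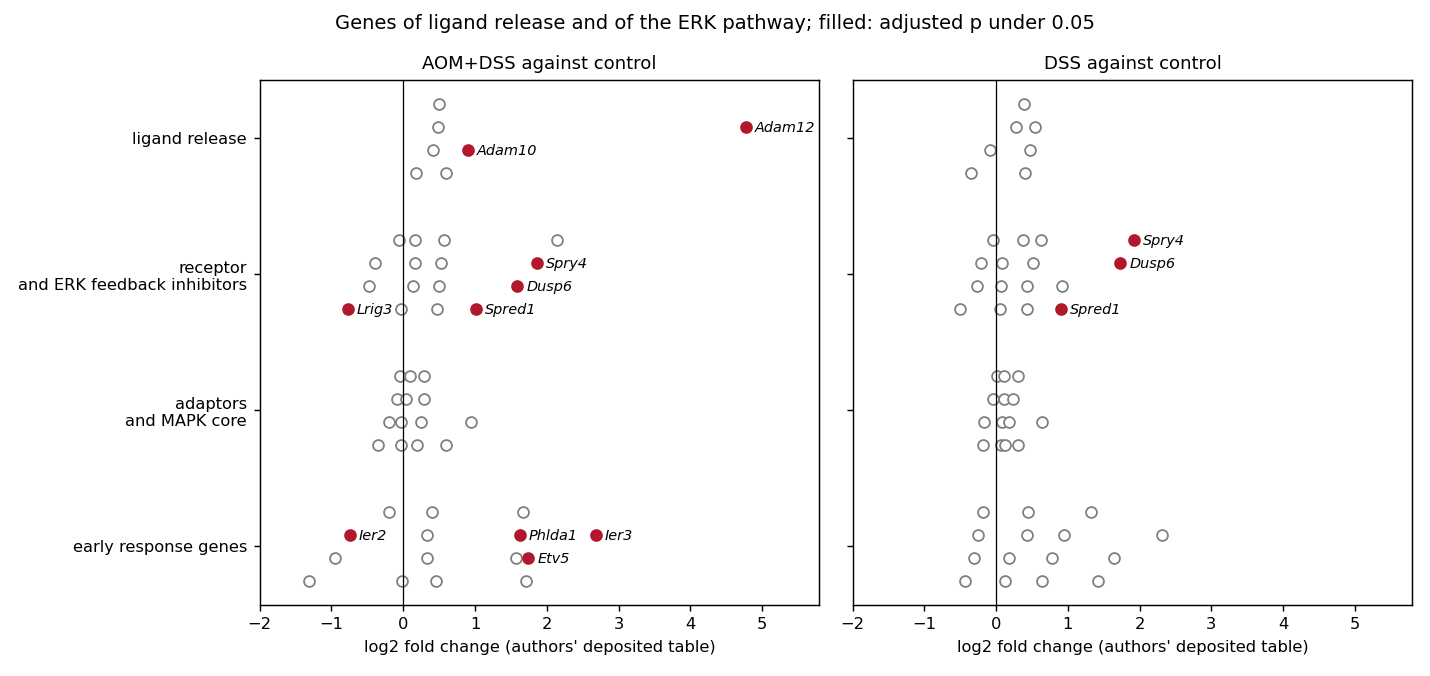
Log2 fold change in the authors' deposited table (x axis) of genes of ligand release (7), receptor and ERK feedback inhibitors (16), adaptors and MAPK core (14) and early response genes (15), for AOM+DSS against control and DSS against control. Filled and named points passed an adjusted p of 0.05, and points are spread vertically within a list for legibility. Dusp6, Spry4 and Spred1 are filled in both panels.

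The plot of pathway lists shows the calls among inhibitors in both panels and those among ligand release and early response genes in the AOM+DSS panel. Whether such genes differ between the treatments was tested directly with limma. Of these lists, Adam12 alone passed in AOM+DSS against DSS, where 1.79% of all genes did. Adam12 met the minimum of 10 only through AOM+DSS. Ier3 had a difference of 1.39 ± 0.36 in limma (SE, adjusted p = 0.126). 5 early response genes and 2 core genes were not recovered in DSS or had a mean under 10 and were not tested there.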

How the data were processed

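Whole-transcriptome sequencing was done on distal colon crypts in 3 groups, AOM+DSS (3 libraries), DSS (4) and control (3), assigned from the titles in the labels. Per the labels' protocols, mRNA was selected by poly(A) and prepared with the TruSeq RNA v2 kit, a kit without strand information. TopHat2 2.0, build mm9 and DESeq are named in the submitters' processing notes, while the read counter, its annotation and the version of DESeq are not given. Per the file headers, the deposited signal columns are means per group of normalized read counts, the fold column divides the treated mean by the control mean, and the log2 column is its logarithm. Per the file headers, the deposited p-values come from DESeq and were adjusted after Benjamini and Hochberg by the authors. One header speaks of 4 AOM replicates, while the labels list 3 and the means show steps of 3 libraries.

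Each printed group mean adds up whole reads scaled by library, so its digits allow few combinations of whole reads. Where several remained, the one whose p, computed as in the authors' DESeq test, matched the printed p within a relative 1e-06 was taken. This gave reads for 99.9% of genes in AOM+DSS, 97% in DSS and 99.4% in control. Of 996 genes resolved from the means alone, 996 had a matching p. Areg, Erbb2 and Erbb3 needed the p, and the other 7 members did not. As the deposited files hold means and not counts, no count model was refitted.

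Log2(normalized reads + 1) of genes averaging 10 or more was compared by limma 3.58.1 with trend (R 4.3.3) and adjusted over all of these genes, after a test on simulated data. Its values are differences of mean logarithms, so they can differ from the logarithm of the ratio of means and understate the change of low genes. The members and lists were chosen with earlier results of these data known. All 10 members are named; from each list, up to 3 called genes with the smallest adjusted p per comparison were named, or the 2 with the highest mean where none was called. Adam9, Adam17, Dusp4, Egr2, Erbb4, Etv4, Etv5, Gab2, Lrig1, Nras, Rhbdf2 and Timp3 fall outside this rule and were named after their values were seen. The same holds for list genes shown in a comparison that did not select them. Hras is in the list of adaptors and was not analysed here. Transcript lengths and GC content came from GENCODE M21 (GC content for 94.2% of genes) and promoters from RefSeq. Alternatives were another threshold, filter, pseudocount and normalization, and each library or DSS pair left out. A planned comparison of ligand proteins was not made. Counting intervals are exact binomial (Clopper-Pearson) and cover counting error only.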

Additional observations from a re-analysis of the deposited data

How the results depend on the processing

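The authors' calls numbered 2 of 10 in DSS and 4 of 10 in AOM+DSS at an adjusted p under 0.01, and 3 and 5 with p adjusted over genes with a mean of at least 10. Limma on recovered reads called 3 in DSS and 7 in AOM+DSS. With 1 library left out, limma called 1 to 4 members in DSS against control, 1 without control a and 1 without control c (Areg both times), where its calls over all genes came to 192 and 251, against 1037 with all libraries. In AOM+DSS against control it called 1 to 7, with 1 without control a (Egfr), 2 without control c, 3 without AOM+DSS a and 2 without AOM+DSS b, where its calls over all genes came to 536, 878, 835 and 1445, against 3124 with all libraries. Egfr was called in all 6 of these AOM+DSS fits and Areg in all 7 of the DSS fits. Between the treatments it called 0 to 1, the 1 being Tgfa without AOM+DSS c, among 443 genes in all. Without DSS c and d, limma called 5 in DSS against control, among 2854 genes in all. Without DSS a and b it called 1 between the treatments, Erbb3, among 2013 genes in all, against 235 with all libraries. These pairs were seen in the same data.

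Directions turned only for differences that did not pass. Without DSS a and b, the limma difference of Btc in DSS against control was -0.0199 and that of Areg between the treatments 0.0221. Without DSS c and d, the differences between the treatments were -0.182 for Egf and 0.223 for Erbb2. With 1 library left out, Erbb3 in AOM+DSS against control ranged from -0.121 to 0.238, and between the treatments Areg ranged from -0.364 to 0.217 and Erbb2 from -0.149 to 0.0557. The causes were not tested.

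No paired analysis was possible because the recovered libraries carry no replicate number. With 3 or 4 libraries a group, small differences could not be detected, and Epgn (1 read in all controls) and Ereg (34 reads) are limited by depth. Reads of overlapping genes on opposite strands cannot be told apart.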
